A study of Mus musculus with 6 samples.

Results

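Some genes read higher than every control on EBF arrays 1 and 2, but not on EBF array 3. The 150 genes described here are those with the widest such gap. They come from Pax5-/- pro-B cells given EBF, an early B cell transcription factor, by retrovirus. Each gene was read at its brightest probe set, a group of short oligonucleotides designed against a transcript, as log2(intensity + 32). Probe sets of the types s_at and x_at can also match other transcripts. Of the members, 5 were read at an s_at probe set (3.33%, beside 6.13% of all genes that passed the brightness limit). Another 7 were read at an x_at probe set (4.67%, beside 4.04%). A gene entered if its mean over the 6 arrays was at least 9 and EBF 3 was at or below the highest control. The score was the lower of EBF 1 and EBF 2 minus the highest control, and the 150 highest scores were taken. Of 18193 genes with 1 symbol, 11061 passed the brightness limit, and these are called the bright genes below. Of those, 7287 also met the limit on EBF 3. The members were thus chosen by their values on all 6 arrays, so their differences between arrays are given as a description, with no test. The last members inside the cut were Zfp945, Adarb1 and 4930542D17Rik, and the first genes outside it were Mrpl20, Ndufaf5 and Cep85. All 6 had a score of 0.29 after rounding, so the boundary cuts through a continuous range. Zfp945 read 1198 and 1051 on EBF 1 and EBF 2, 766 on EBF 3 and 690.2, 856 and 814 on control 1 to 3, and Ndufaf5, just outside, read 1610 and 1510.4, then 1231 and 1187, 1234 and 1075. Dropping an array from the rule changed the list. Without EBF 3 it kept 42 of the 150, and without EBF 2 it kept 95. Leaving out EBF 3 also removes the limit on it, so genes with all 3 EBF arrays above every control can enter.

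Both groups were Pax5-/- mouse pro-B cells, held on ST2 stromal cells with 5 ng/ml IL-7. The 3 EBF samples received the Mig-EBF retrovirus and the 3 control samples the MigR1 retrovirus, and after 2 days of infection the cells carrying GFP were sorted. EBF 1 to 3 and control 1 to 3 below take their numbers from the replicates in the labels. Nothing in the labels ties replicates to different cultures or mice. Any p-value here therefore reflects how far these arrays scatter, and part of that scatter may be technical. A rat array is named in the series' design, but the probe sets matched a mouse array table and were read as mouse.

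EBF1 works with E proteins, Foxo1 and Pax5 to switch on pre-B cell receptor genes and to close off other fates. Without Pax5, pro-B cells stay in an early state from which other blood lineages can still be reached. ST2 cells supply contact and growth factors, and IL-7 keeps pro-B cells dividing. A retroviral culture can differ between infections in the dose of virus and in the state of the cells at sorting. Replicates of a group are therefore usually compared array by array before they are averaged.

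Array medians lay between 424 and 451. At its brightest probe set, Ebf1 was at 4537 ± 394 (SD, n = 3) with EBF virus and 4169 ± 127 (SD, n = 3) with control virus. It read 4772 and 4756 on EBF 1 and EBF 2, 4082 on EBF 3 and 4204, 4276 and 4029 on control 1 to 3. Ebf1 thus had the members' order of arrays, with EBF 3 inside the control range, but was not a member. Its part in the members' values was not tested. Whether that probe set of Ebf1 lies in the part carried by the virus is not known here, so it does not check the labels. Pax5 read 933 ± 22.9 (SD, n = 3) with EBF virus and 980.0 ± 40.6 (SD, n = 3) with control virus. That is above the highest Bacillus control probe set (410) on all 6 arrays, in cells labelled Pax5-/-. Whether its probe set lies in the deleted part is not known here either. All 10 pro-B markers were above the same Bacillus level. Their summed intensity was 64612 to 65874 on the EBF arrays and 53505 to 55249 on the controls, with EBF 3 the highest of all. These markers include Ebf1 itself and the pre-B cell receptor genes Vpreb1 and Igll1, so the sum is not a measure of pro-B cell content. The 14 stromal markers, of which 13 were above that level, summed to 29195, 20183 and 25285 on EBF 1 to 3 and to 22729, 29887 and 36899 on control 1 to 3. None of the 6 marker lists (pro-B, stromal, myeloid, NK, T and erythroid) held a member. In sorted bulk samples, fewer cells of a type and less RNA per cell cannot be told apart.

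Promoter windows are shown for genes that the results below turn on. Gtpbp8 had the highest score, Plxnb3 had the gap at both of its probe sets, and Ergic3 had it at every one of its probe sets. The windows run from 250 bases before to 50 after an annotated start, from RefSeq on GRCm38.p6, and are written 5′ to 3′ on the strand of the gene. Capitals mark CCCNNGGG, the core of the palindrome that EBF proteins bind. Gtpbp8 lies at chr16:44746314-44746613 on the minus strand, Plxnb3 at chrX:73756853-73757152 on the plus strand and Ergic3 at chr2:156007778-156008077 on the plus strand.
Gtpbp8: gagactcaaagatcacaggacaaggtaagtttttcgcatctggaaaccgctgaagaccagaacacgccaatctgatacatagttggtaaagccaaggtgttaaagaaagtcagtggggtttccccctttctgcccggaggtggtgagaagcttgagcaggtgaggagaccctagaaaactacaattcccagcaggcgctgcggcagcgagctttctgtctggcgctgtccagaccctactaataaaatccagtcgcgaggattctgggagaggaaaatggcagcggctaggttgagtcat
Plxnb3: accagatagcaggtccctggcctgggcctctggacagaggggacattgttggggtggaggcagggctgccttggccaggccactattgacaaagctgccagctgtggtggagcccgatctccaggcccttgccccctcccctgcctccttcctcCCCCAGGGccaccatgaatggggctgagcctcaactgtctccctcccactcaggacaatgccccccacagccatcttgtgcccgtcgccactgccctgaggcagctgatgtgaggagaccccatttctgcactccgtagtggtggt
Ergic3: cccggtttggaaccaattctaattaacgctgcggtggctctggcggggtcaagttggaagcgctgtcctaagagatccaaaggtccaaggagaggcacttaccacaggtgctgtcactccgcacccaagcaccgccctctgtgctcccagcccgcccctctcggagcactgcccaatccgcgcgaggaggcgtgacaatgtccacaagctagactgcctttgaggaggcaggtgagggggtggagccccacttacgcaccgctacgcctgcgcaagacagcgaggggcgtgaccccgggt
Promoter windows were found for 130 members (166 windows). CCCNNGGG, searched on both strands, was present in 13.9% of member windows, 17.8% of the windows of bright genes and 13.7% of all windows in the table. The same core with T before it and A after it, which overlaps the shorter form by construction, was in 0 member windows and in 1.07% of the windows of bright genes. The other motifs were also searched on both strands, and shares are again given for member windows against windows of bright genes. CCAAT was in 38.6% of member windows against 37.2%, the E box CACGTG in 10.2% against 9.86% and the ETS motif CCGGAAG in 13.3% against 17.2%. The E2F motif TTTCCCGC was in 1.20% (2 windows) against 1.99%, the NRF1 motif in 3.61% (6 windows of 4 genes) against 2.01% and TATAAA in 9.64% against 7.20%. Median GC content was 60.3% in member windows and 60.7% in those of bright genes. A match is a description of letters and not a site.

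Across the members, the median intensity was 1540 on EBF 1 and 1446 on EBF 2. It was 990.3 on EBF 3, and 1002, 1034 and 961 on control 1 to 3. Set against each gene's control mean, the median log2 difference was 0.59 on EBF 1, 0.47 on EBF 2 and -0.01 on EBF 3, against 0.00, 0.03 and 0.02 over all bright genes. EBF 1 read above EBF 2 for 127 members and below it for 23. The mean of EBF 1 and EBF 2 exceeded the control mean by a median of 0.54, with a range of 0.34 to 1.06. These are mostly modest differences, since 49 members reached 1.5-fold and 1, Gtpbp8, reached 2-fold.

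**Figure D1:**
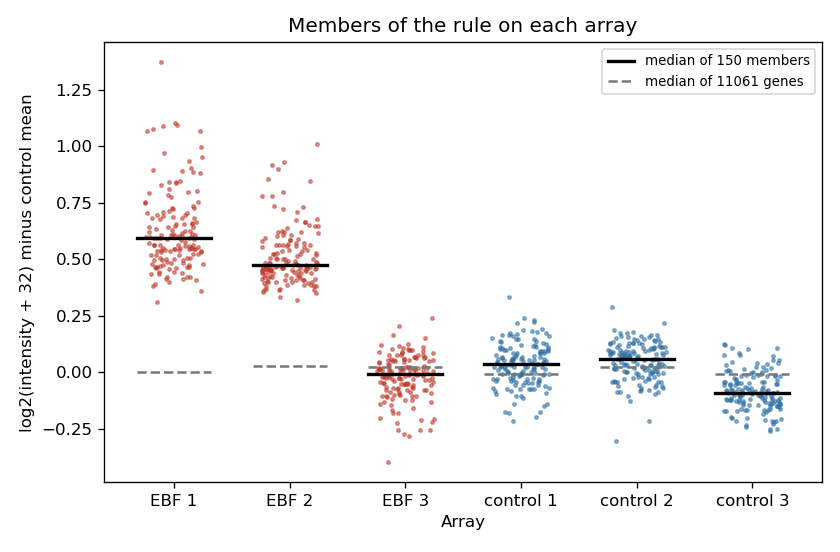
Log2(intensity + 32) minus the control mean of the gene, for each of the 150 members (points) on each array, with the median of the members (solid bar) and of all 11061 bright genes (dashed bar). EBF 1 and EBF 2 have member medians of 0.59 and 0.47, while EBF 3 has -0.01, with points within and below the controls. The rule kept EBF 3 at or below the highest control of each gene.

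The rule held EBF 3 at or below the highest control, but did not set how far below. EBF 3 fell between the lowest and highest control for 120 members and below every control for 30. EBF 3 was below every control for 22.6% of bright genes, 2504 in all. These are all among the 7287 genes that met the limit on EBF 3, which is the nearer base for the members. Relative to the control mean, EBF 3 was above for 68 members, with a range of -0.40 to 0.24. Its side depends on which controls are averaged: the median of -0.01 became 0.01 without control 1 or without control 2, and -0.06 without control 3. The controls were not alike either. Control 3 was the lowest control for 107 members, against 33.7% of bright genes, and the highest for 10. Compared with the control of its own number, EBF 3 read higher for 102 of 150 members, beside 58.8% of bright genes and 58.9% of the 1449 bright genes with the same order of arrays, with a median of 0.06. The same-numbered differences had medians of 0.57 for EBF 1 and 0.42 for EBF 2.

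EBF 3 was the EBF array that most often did not pass the controls when the other two did. That array could lie within the controls or beyond them on the opposite side. EBF 1 and EBF 2 were both above every control, with EBF 3 not above the highest, in 13.1% of bright genes, 1449 in all. With EBF 1 as the array that did not pass, there were 539 such genes, and with EBF 2 there were 292. The downward counterpart gave 1359 genes with EBF 3 as that array, 197 with EBF 1 and 313 with EBF 2. EBF 1 and EBF 2 were above every control, with EBF 3 at any level, in 29.9% of bright genes, and all 3 EBF arrays were in 16.8%. The 150 members are thus the upper end of a split seen in both directions, and were not tested against it.

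**Figure D2:**
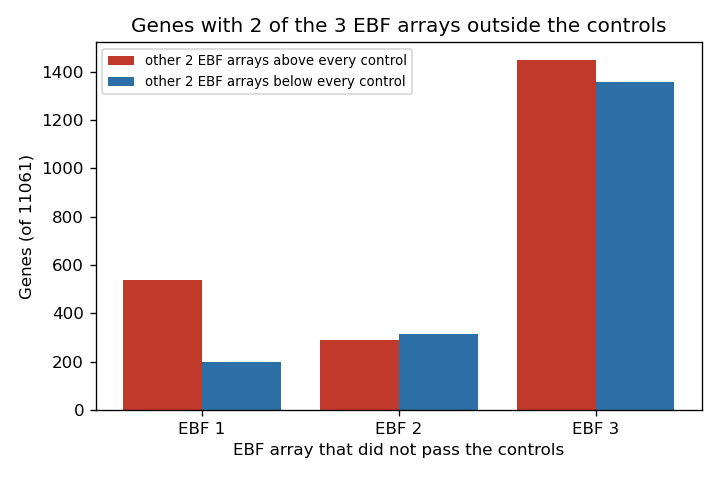
Number of the 11061 bright genes in which 2 EBF arrays lay above every control while the EBF array named on the horizontal axis was not above the highest (red), and the same below every control and the lowest (blue). EBF 3 was that array for 1449 genes upward and 1359 downward, against 539 or fewer for EBF 1 and EBF 2.

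Some control probe sets moved with the same arrays. The 5′ probe set for 18S ribosomal RNA read 6702 on EBF 1 and 8081 on EBF 2, against 10503 on EBF 3 and 10733, 16531 and 11024 on control 1 to 3. The middle 18S probe set also had EBF 1 and EBF 2 lowest, with 2623 and 3458 against 3993 to 9510.5 on the other arrays. The 3′ 18S probe set did not, since EBF 2 at 6109 was above EBF 3 at 5805 and control 1 at 5203. The 3′ probe set for beta-actin read 21465 and 21579.9 on EBF 1 and EBF 2 and 23823 or more elsewhere. Of 19 control probe sets for mouse transcripts, EBF 1 and EBF 2 were both below the other 4 arrays in 5 and both above them in 4. Of 45 bacterial and phage control probe sets, the numbers were 6 and 2. The 5 mouse ones below were all probe sets for beta-actin or 18S, so probe sets of the same transcript are counted separately. The 4 mouse ones above were the 3′ probe sets for Gapdh and the transferrin receptor and the MA and MB probe sets for pyruvate carboxylase. For the transferrin receptor they were at 5384 and 5068, against 3959 to 5005 elsewhere. Both arrays were above the other 4 in at least 13.1% of bright genes, those with the members' order. They were below the other 4 in at least 12.3%, those of the downward counterpart. The ratio of the 3′ to the 5′ probe set, a sign of RNA integrity, was 1.03 and 1.04 for Gapdh on EBF 1 and EBF 2 and 1.01 on each other array. For beta-actin it was 1.14 and 1.25 on EBF 1 and EBF 2, 1.22 on EBF 3 and 1.13 to 1.18 on the controls. For the transferrin receptor it was 3.18 and 2.78, then 2.70 on EBF 3 and 2.44 to 2.89 on the controls, so neither of these ratios set EBF 1 and EBF 2 apart. For pyruvate carboxylase it was 2.69 and 2.56 on EBF 1 and EBF 2 and 2.95 to 3.11 on the others. The part of these in the members' values was not tested.

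The fit of EBF against control over all probe sets does not test the members, because the rule used the same arrays. It called 0 of the 150 higher (limma, adjusted p threshold 0.05), where 0.418% of all genes were called, and 79 members had an unadjusted p below 0.05, beside 13.5% of all genes. With the replicate number as a block it called 47 members, where 4.80% of all genes were called. Without EBF 3 it called all 150, beside 7.08% of genes, and without any other array it called 0. Without EBF 3 and control 2 together it called 112, beside 3.17% of genes. Nothing is read from these counts.

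The members with the highest scores came from unrelated families, several of them best known outside blood cells. Gtpbp8 encodes a GTP-binding protein. It read 2001 and 1875 on EBF 1 and EBF 2, 985 on EBF 3 and 1029, 944 and 787 on control 1 to 3. EBF 1 and EBF 2 stood well above the rest, and EBF 3 lay inside the controls (log2 1.06 for the mean of EBF 1 and EBF 2 against the control mean). Kcnj12 encodes an inward rectifier potassium channel of heart and brain. It read 1369 and 1239 on EBF 1 and EBF 2, 611 on EBF 3 and 680.3, 696 and 542 on the controls. Here too the EBF 3 array was inside the control range. Sox3, a transcription factor of neural progenitors, read 2380.1 and 2101 on EBF 1 and EBF 2, 1109 on EBF 3 and 1225, 1109.6 and 1015 on the controls. EBF 3 and control 2 differed by under a unit of intensity for this gene.

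Spem1 is needed for sperm maturation. It read 1766 and 1723 on EBF 1 and EBF 2, 933 on EBF 3 and 1025, 900.4 and 916 on the controls. Bspry, which encodes a protein with B-box and SPRY domains, read 1147 and 970.5, then 511 on EBF 3 and 593, 554 and 435 on the controls. For both genes EBF 3 lay between the highest and lowest control. Dnajb5, an Hsp40 co-chaperone, had 963 and 974 on EBF 1 and EBF 2 against 584 on EBF 3 and 538 to 597 on the controls. Decr2, a peroxisomal enzyme of fatty acid oxidation, had 1018 and 1039 against 639.6 on EBF 3. Its highest control, control 1, stood at 639.7, so EBF 3 passed the rule by a margin far smaller than the spread of the controls, which were 497 and 484 on control 2 and 3. Decr2 also had the highest EBF 3 value relative to the control mean (log2 0.24).

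Among the next scores, Tns4, a tensin of focal adhesions, read 947 and 887 on EBF 1 and EBF 2, 529 on EBF 3 and 464 to 577 on the controls. Mdfi, an inhibitor of myogenic factors, read 1035 and 858, then 475 on EBF 3, which was below the 481, 483 and 579 of the controls. Both had a gap of more than 0.50 in score. Brca2, a tumour suppressor that acts in homologous recombination, was among the brightest of these at 5834 and 5496, with 3358 on EBF 3 and 3611, 3819.5 and 3369 on control 1 to 3. Its EBF 3 array was the lowest of all 6. The other members named below in groups by role were grouped after their values were seen.

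**Figure D3:**
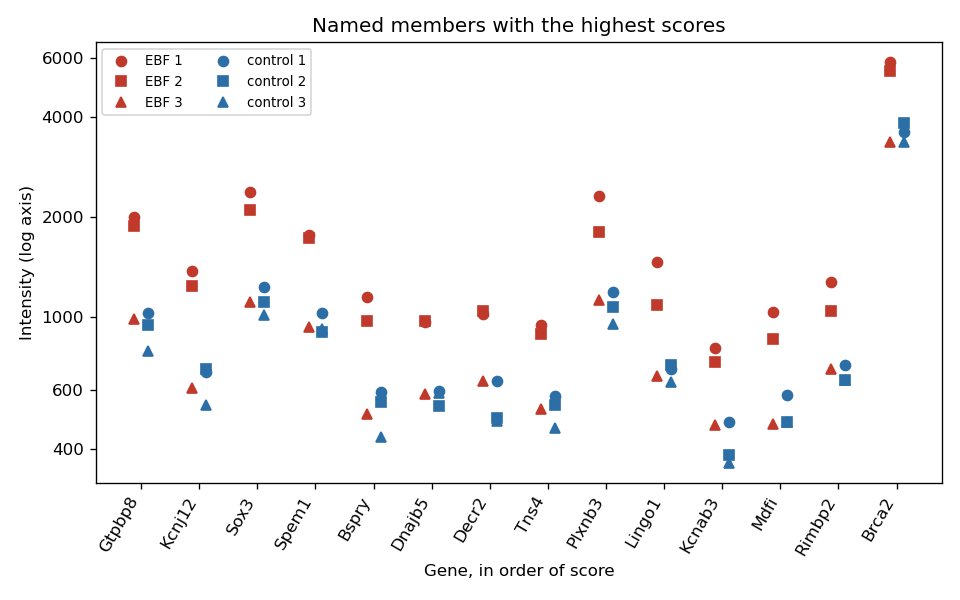
Intensity on a log axis of the 14 highest-scoring members with a gene name, with EBF arrays in red and controls in blue (circle, square and triangle for replicates 1, 2 and 3). The red triangles (EBF 3) overlap the blue points, while red circles and squares stand above them.

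Channels and neural genes formed a group of 11. Here and below, a difference is the log2 mean of EBF 1 and EBF 2 minus the control mean. It was 0.47 or more in each of the 11, with a median of 0.69 and the highest in Kcnj12, and with EBF 3 at -0.27 to 0.20 from the control mean. Besides Kcnj12, the group held Kcnab3, a potassium channel beta subunit, with 806 and 729 on EBF 1 and EBF 2, 473 on EBF 3 and 482, 382 and 364 on the controls. Plxnb3, a semaphorin receptor, read 2309.7 and 1797, then 1119 on EBF 3 and 1189, 1073 and 949 on the controls. Lingo1, a part of the Nogo receptor complex that limits axon growth, read 1461 and 1088, then 661 on EBF 3 and 695, 718 and 634 on the controls. EBF 1 stood well above EBF 2 for Plxnb3 and Lingo1. Rimbp2, an active zone protein of synapses, had a difference of 0.76. Kalrn, a signalling protein of dendritic spines, read 5038 and 5082 on EBF 1 and EBF 2 and only 2875 on EBF 3, below its controls at 3269, 3851 and 3234. Baalc, a gene of neuroectoderm and of early blood progenitors, also had EBF 3 (1085) below every control (1292 to 1333). EBF 1 and EBF 2 were above every control at 3 of 7 further probe sets of Kalrn and at 0 of 3 of Baalc. At those of Baalc, EBF 3 was not below every control.

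The 4 developmental transcription factors and their regulators had differences of 0.48 to 0.99. Pou3f2, a factor of neural and melanocyte cells, read 3259 and 2918 on EBF 1 and EBF 2, 2054 on EBF 3 and 2022, 2273 and 1943 on the controls. Myod1, the master factor of skeletal muscle, read 857 and 717, then 561 on EBF 3 and 576, 555 and 532 on the controls. In both, EBF 3 was within the controls at these probe sets. Further probe sets of these genes did not all repeat the gap. Pou3f2 had log2 differences of 0.14 and -0.24 there. Myod1 had -0.15 at its other probe set, where the arrays read only 6.91 to 21.6. Sox3 and Mdfi were the other genes of this group.

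Secreted and plasma proteins made up 8 members, with differences of 0.45 to 0.74. Apoa5, a liver apolipoprotein that lowers plasma triglyceride, read 1908 and 2027 on EBF 1 and EBF 2, 1009.6 on EBF 3 and 1179.9, 1333 and 1009 on the controls. Ltf, the iron-binding lactoferrin of neutrophil granules and milk, read 1289.8 and 1183, then 856 on EBF 3 and 808, 812 and 859 on the controls. EBF 3 stood at the level of control 3 for both. Apod, a lipocalin, was among the members with the highest EBF 3 relative to the control mean (log2 0.13), and Serpina3n, Wnt10b, Chrd, Eda and Wfdc12 completed the group. In 7 of these 8 genes EBF 3 was above control 3, as it was in 102 of the 150 members.

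The 9 enzymes of lipid, drug and small molecule metabolism had differences of 0.43 to 0.90 and EBF 3 at -0.16 to 0.24. In all 9 of these, EBF 3 read above control 3, and in 0 was it below every control. Over all 150 members these counts were 102 and 30. Over bright genes, which include those the limit on EBF 3 kept out, the shares were 58.8% and 22.6%. With a group formed after its values were seen, nothing is read from these counts. Pnmt, which makes adrenaline in the adrenal medulla, read 694 and 722 on EBF 1 and EBF 2, 522 on EBF 3 and 526, 486 and 398 on the controls. The others were Decr2, Ephx2, Far1, Fmo4, Gstm7, Cyp2c70, Acy3 and Sat2. In this group 3 genes had 7 further probe sets, and EBF 1 and EBF 2 were above every control at 0 of them. Over the further probe sets of all bright genes the share was 27.0%. Those of Pnmt had differences of -0.23 and 0.04.

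The immune genes, 7 in number, had differences of 0.44 to 0.81. Slamf7, a receptor of NK and plasma cells, read 741 and 707 on EBF 1 and EBF 2, 451 on EBF 3 and 510.0, 378 and 327 on the controls. Its controls spread widely, and EBF 3 stood below control 1 and above control 2 and control 3. Irf9, the DNA-binding part of the interferon-activated complex ISGF3, read 2500.1 and 2352, then 1759 on EBF 3 and 1726, 1778 and 1591 on the controls. Xaf1, an interferon-induced regulator of apoptosis, read 5987 and 5221, then 3668 on EBF 3, below the 3771, 3976 and 3787 of the controls. Irf9 and Xaf1 were the 2 members among the 40 bright genes of the interferon response list, and that list had a median difference of -0.21 on EBF 1 and EBF 2. The other immune members were Fcgr4, Clec2d, the necroptosis effector Mlkl and the nuclear receptor Nr4a3. Xaf1 and Nr4a3 had 3 further probe sets between them. EBF 1 and EBF 2 were above every control at 0 of these 3, beside 27.0% of the further probe sets of bright genes.

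DNA repair was represented by Brca2, Lig3 and Poll. Lig3, a ligase of single-strand break repair and of mitochondria, read 4260.3 and 4025 on EBF 1 and EBF 2, 2873 on EBF 3 and 2765, 3192 and 2804 on the controls. Poll, a polymerase that fills gaps in V(D)J and other end joining, read 1848 and 1738, then 1301 on EBF 3 and 1375, 1240.0 and 1229.8 on the controls. Brca2 and Lig3 were 2 of the 73 bright genes in the list of DNA damage response and repair, and 3 of those 73 (4.11%) had EBF 1 and EBF 2 alone above the controls, against 13.1% of bright genes. Aen and Ppm1d, an exonuclease and a phosphatase induced by p53, differed by 0.40 and 0.47.

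Chromatin and transcription genes were the widest group, with 15 members and differences of 0.34 to 0.61. EBF 3 was below every control in 6 of them, as it was in 30 of the 150 members. Cdyl, a chromodomain corepressor, had the lowest EBF 3 of all members relative to the control mean (log2 -0.40). It read 2312 and 2049.7 on EBF 1 and EBF 2, 1182 on EBF 3 and 1663, 1589 and 1456 on the controls, so that EBF 3 was outside the controls on the low side. Rcor2, a partner of the demethylase Lsd1, read 2444 and 2209.7, then 1395 on EBF 3 and 1294, 1634 and 1624 on the controls. Cic, the repressor of genes downstream of Ras signalling, read 7934 and 7045, then 5055 on EBF 3 and 5185, 5626 and 5199.8 on the controls. Zfp106, Zfp212 and Zfp410 had differences of 0.54, 0.59 and 0.52 and led the 6 zinc finger members, out of 264 bright zinc finger genes. Sestd1 and Shf, which are signalling proteins outside this group, had EBF 3 at -0.28 and -0.26.

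RNA processing and membrane traffic each had 7 members. Rbm6, a splicing regulator, read 5499 and 5132 on EBF 1 and EBF 2, 3532 on EBF 3 and 3286, 3646 and 3281 on the controls. Dgcr8, which with Drosha cuts primary microRNAs, read 4339 and 4480.4, then 3189.8 on EBF 3 and 3158, 3363 and 3270.4 on the controls. These 7 RNA processing genes had differences of 0.43 to 0.64. In membrane traffic the differences were 0.42 to 0.78, and Ergic3, a cargo receptor between the endoplasmic reticulum and Golgi, read 3559 and 3388, then 2508 on EBF 3 and 2497, 2736 and 2439.7 on the controls. Kinases and their scaffolds, Rps6kc1, Map3k12, Grk5 and Mapkbp1, had differences of 0.49 to 0.60. The 2 solute carriers among the members, of 208 bright ones, were the glucose transporter Slc5a2 (0.69) and the mitochondrial pyrimidine carrier Slc25a33 (0.49). In all, 77 members were placed in these groups and 73 were not.

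Members were few in the lists of cell functions and gene families, and they make up 1.36% of bright genes. Of 43 such lists, 32 held 0 members, 7 held 1 and 4 held 2 or more. Together the lists held 19 of the 150 members (12.7%) and 21.6% of bright genes. DNA replication (62 bright genes), mitosis (81), ribosome biogenesis (94), proteasome (43), splicing (87) and vesicle traffic (106) had 0 members. At a share of 1.36%, a list of these sizes would hold about 1 member, so a 0 in any of them says little. The mitosis list had 1 gene with EBF 1 and EBF 2 alone above the controls, which is 1.23% against 13.1% of bright genes, and its median difference was 0.16 on EBF 1 and EBF 2 and 0.27 on EBF 3. By these medians, EBF 3 stood above the mean of the other EBF arrays in that list. Lists of pre-B cell receptor signalling (28 bright genes) and B lineage factors (36) also had 0 members, and are smaller still. By brightness, 42.7% of members and 32.9% of bright genes had a mean log2 between 9 and 10, and 5.33% and 12.6% had one of 12 or more.

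The gap was often not repeated at other probe sets of the same gene. These come from the same arrays, so they describe the gene but do not test it. Of the members, 67 had 1 probe set and 83 had between them 174 further ones. EBF 1 and EBF 2 were above every control at 63 of the 174 (36.2%), beside 27.0% of the 13629 further probe sets of all bright genes. With EBF 3 also not above the highest control, the count was 32 (18.4%), beside 12.5%. The median difference of EBF 1 and EBF 2 from control was 0.07 at the further probe sets of members, where it was 0.54 at the probe sets of the rule. Some further probe sets were dim. Among the 129 with a mean log2 of at least 8, EBF 1 and EBF 2 were above every control at 54 (41.9%, beside 27.3%), and with EBF 3 not above the highest at 30 (23.3%, beside 12.7%). Among the 82 with a mean log2 of at least 9, EBF 1 and EBF 2 were above every control at 36 (43.9%, beside 28.0%) and with EBF 3 not above the highest at 22 (26.8%, beside 12.9%), with a median of 0.09.

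**Figure D4:**
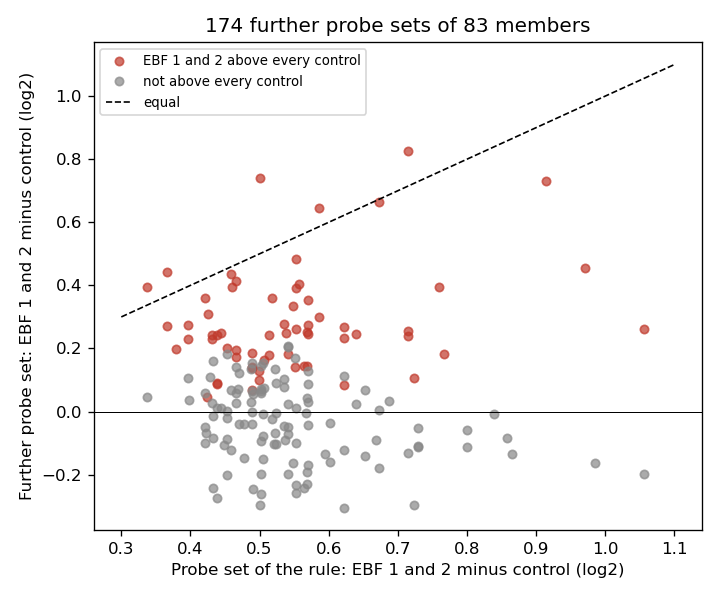
Log2 difference of the mean of EBF 1 and EBF 2 from the control mean at the probe set of the rule (horizontal) and at each of 174 further probe sets of the same genes (vertical). Red points are further probe sets with EBF 1 and EBF 2 above every control (63 of 174), and most points lie below the dashed line of equal differences.

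Members differed in this respect. Plxnb3 had the gap at its other probe set too, at 1892 and 1626 on EBF 1 and EBF 2, 1066 on EBF 3 and 1099, 1019 and 1016 on the controls (log2 0.73). Ergic3 was the 1 member with at least 2 further probe sets that all showed the gap, and its 3 had smaller differences of 0.24, 0.09 and 0.09. The other probe set of Plxnb3 is of the type s_at. That of the rule for Ergic3 is of the type x_at, and its further ones include both types. Whether they read other transcripts was not tested. For Nhsl1, an actin regulator chosen after its values were seen, 1 of 3 further probe sets had a difference of 0.66 and the other 2 had 0.00 and -0.18. Where the difference was 0.66, EBF 3 at 658 was also above the controls at 607, 614 and 570. Gtpbp8, first by score, had a dim further probe set with EBF 1 and EBF 2 above every control, at 206 and 192 against 169.8, 177 and 138 (log2 0.26). There EBF 3, at 188, was above every control too. At the bright further probe set of Gtpbp8 the difference went the other way (log2 -0.20). This probe set read 1006 and 879 on EBF 1 and EBF 2, 1296 on EBF 3 and 1090.4, 1136 and 1026 on the controls. Sox3 read 658 and 728 on EBF 1 and EBF 2, 787 on EBF 3 and 723, 854 and 763 on the controls at its other probe set (-0.16). At this probe set of Sox3 and the bright one of Gtpbp8, EBF 1 and EBF 2 did not stand above the controls. At the brightest further probe set of Lig3, EBF 1 and EBF 2 were at 2063 and 2265, below the controls at 2474, 2879 and 2468. Cdyl had 0.14 and 0.03 at its 2 further probe sets, and there EBF 3 was not low.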

How the data were processed

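The authors deposited 1 intensity per probe set and array on a linear scale. Which software and normalization made them is not given in the sources used here. Per the labels, biotin-labelled cRNA came from 6 microg total RNA. No scaling was added. Setting aside 64 Affymetrix control probe sets, 45037 remained. Of these, 34945 had 1 symbol, 932 several and 9160 no listed gene. The scale throughout was log2(intensity + 32), on which dim genes show too small a change. limma 3.58.1 under R 4.3.3 fitted the EBF to control difference (two-sided, Benjamini-Hochberg over all probe sets). The fit was also run on simulated data with independent arrays and planted changes on every EBF array. That setting differs from the members', so nothing is read from it for them. Over probe sets brighter than the median, arrays with the same replicate number deviated together (r = 0.316, 0.251 and 0.505 for numbers 1 to 3). No r for unlike numbers is given beside these. The numbers were taken to pair the arrays in the fit with a block, from the data alone. The main fit left this pairing out. Members and lists were chosen with earlier results of these data known. Named were the 15 highest scores, up to 3 per list with at least 2 members, 3 genes on each side of the cut, the 5 lowest and 5 highest on EBF 3, and members with at least 2 further probe sets that all showed the gap. Clone-type symbols were named only at the cut, and other genes were chosen after their values were seen. The alternatives were pseudocounts, scaling, brightness limits, probe set choice, the block and left-out arrays. Precision is limited by the number of arrays.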

Additional observations from a re-analysis of the deposited data

How the results depend on the processing

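Membership depended on the settings. Of the 150 members, 147 were kept with a pseudocount of 16, 143 with 64, 130 after quantile normalization, 116 after scaling to a common median and 107 with a mean log2 limit of 8. With a limit of 10, 86 were kept, since dimmer members cannot enter, and 77 were kept when all probe sets of a gene were averaged. Leaving out 1 array kept between 42 and 147, with the lowest number without EBF 3, and leaving out EBF 3 and control 2 together kept 46. In both cases without EBF 3 the limit on that array falls away, so the rule itself is changed. The limma count of members called higher was 0 in the fit of all arrays and ranged from 0 to 150 over the fits without 1 array, where 150 was reached without EBF 3. It was 112 without EBF 3 and control 2 together, where 3.17% of all genes were called. With the replicate number as a block it was 47. The median difference of EBF 1 and EBF 2 from control lay between 0.50 and 0.57 with other pseudocounts, with both scalings and without each control in turn, the alternatives run for it. Over the same alternatives, that of EBF 3 lay between -0.06 and 0.01. Of the further probe sets, 63 had EBF 1 and EBF 2 above every control, 60 after quantile normalization, 54 with a mean log2 of at least 8 and 36 with at least 9, where fewer probe sets (82) were counted.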

Other observations

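Since several high-scoring members are best known from other tissues, 181 genes typical of liver, brain, muscle, eye, germ cells, gut, kidney, skin, lung or endocrine glands were listed after the members had been seen. Of these, 166 were measured and 39 were bright genes, of which 0 were members. The list held Apoa1 and Myog but not the members Apoa5 and Myod1, so that 0 follows from how it was drawn up. EBF 1 and EBF 2 were above every control, with EBF 3 not above the highest, in 6 of the 39 (15.4%), beside 13.1% of bright genes, and the median difference of EBF 1 and EBF 2 from control was 0.01. The 13.1% counts the members, which this list leaves out, so the shares have unlike bases and are not compared.

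Among lists that held 0 members, the share of genes with this order of arrays ranged widely. It was 30.8% of 39 bright genes of PI3K, Akt and mTOR signalling and 23.8% of 42 ribosomal protein genes, where the median differences were 0.05 and 0.02. It was 4.84% of 62 DNA replication genes. None of these shares was tested.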
